A study of Mus musculus with 21 samples.

Results

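The 7 genes Apoa1, Apob, Apoe, Lcat, Scarb1, Abca1 and Abcg1, which act in cholesterol and lipoprotein handling, were examined for binding of estrogen receptor alpha (ERα), the nuclear receptor for estradiol, in fat and liver of mice. They are 7 of the 21627 protein-coding genes of the table used. The genes were fixed by name, and a peak was counted for a gene when its summit lay inside the gene's span or within 25 kb of it. By this rule 62 of the 72690 peaks of 5 deposited lists lay near the 7 genes. The receptor was mapped by ChIP-seq, in which DNA bound by it is recovered with an antibody, here sc543, and sequenced. The animals were CD-1 mice, 10 weeks old, given estradiol or vehicle before they were killed. The groups were vWAT (visceral white fat) with estradiol (4 libraries), vWAT with vehicle (2 libraries), and scWAT (subcutaneous white fat, 3 libraries), BAT (brown fat, 1 library) and Liver (2 libraries), all 3 with estradiol. The labels give neither the dose nor the time of treatment, and they do not say whether libraries came from separate animals. Vehicle was given in vWAT alone among the ERα groups, so hormone can be compared in that tissue and in no other.

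Cholesterol leaves cells through ABC transporters. Abca1 encodes the transporter that loads cholesterol and phospholipid onto lipid-poor apolipoprotein A-I, the product of Apoa1 and the main protein of high-density lipoprotein (HDL), and Abcg1 encodes one that adds cholesterol to HDL already formed. Lcat encodes the plasma enzyme that esterifies the cholesterol of HDL, and Scarb1 the HDL receptor SR-BI, which takes cholesteryl ester into liver and steroid-making cells. Apob encodes the structural protein of very-low-density and low-density lipoproteins, and Apoe the apolipoprotein through which remnant particles are taken up by cells. Hepatocytes make most of these secreted proteins, and adipocytes hold a large store of unesterified cholesterol.

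Each group had 1 deposited peak list, so there is no spread between animals, no test across replicates was possible, and all comparisons below are counts and ranks. After restriction to chromosomes 1 to 19 and X there were 20715 peaks (vWAT estradiol), 7400 (vWAT vehicle), 17971 (scWAT), 5193 (BAT) and 21411 (Liver). The read depth behind them is unknown. Enrichment, the authors' ratio for each peak over a background that is not stated, was used to rank peaks within a list. Enrichments of different lists are printed beside their ranks, but lists are compared by rank and count, not by enrichment. Peaks reaching 2 or more in −log10 q-value made up 89.9% in the vWAT estradiol list, 70.9% in the vWAT vehicle list, 88.0% in scWAT, 33.5% in BAT and 46.4% in Liver. The classical estrogen targets Greb1 and Pgr had 4 peaks each in vWAT with estradiol and 1 each with vehicle, 6 and 3 in scWAT, 0 and 0 in BAT, and 3 and 0 in Liver. Expression was not analysed here, so the tissue labels were not checked against marker genes.

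Promoter windows of RefSeq (GRCm38.p6, the assembly of mm10), from 250 bases before to 50 bases after a gene's start, were at hand for Apoa1, Apob, Apoe, Lcat and Abca1. The 5 windows below are shown because a peak covers them or because they belong to the members with the strongest peaks. Among the members' own windows, that of Lcat on chr8:105943353-105943652 (minus strand) was the one a peak overlapped, in the Liver list. Its capitals mark the 21 bases centred on the Liver summit. The window of Tomm40 on chr7:19715380-19715679 (minus strand), whose gene lies beside Apoe, was covered by the strongest peak near Apoe, and its capitals mark the 21 bases centred on the summit of vWAT with vehicle. In the other windows capitals mark the letters GGTCA or their reverse complement TGACC, the core of the estrogen response element. They are Psmb10 on chr8:105938343-105938642 (minus strand), which the strongest BAT peak near a member overlapped by 162 bases, and Abca1 on chr4:53159846-53160145 (minus strand) and Apoe on chr7:19699139-19699438 (minus strand), which no peak overlapped.
Lcat: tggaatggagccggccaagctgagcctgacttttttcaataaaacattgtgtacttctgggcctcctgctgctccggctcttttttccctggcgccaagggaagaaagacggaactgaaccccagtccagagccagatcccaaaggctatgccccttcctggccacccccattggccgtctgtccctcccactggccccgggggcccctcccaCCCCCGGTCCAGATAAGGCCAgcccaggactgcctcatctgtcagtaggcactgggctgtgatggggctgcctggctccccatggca
Tomm40: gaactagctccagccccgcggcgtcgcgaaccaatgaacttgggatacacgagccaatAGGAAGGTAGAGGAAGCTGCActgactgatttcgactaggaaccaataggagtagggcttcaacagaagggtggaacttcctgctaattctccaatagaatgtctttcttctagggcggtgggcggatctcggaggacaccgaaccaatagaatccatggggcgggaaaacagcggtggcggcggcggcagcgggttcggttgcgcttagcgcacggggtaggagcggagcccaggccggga
Psmb10: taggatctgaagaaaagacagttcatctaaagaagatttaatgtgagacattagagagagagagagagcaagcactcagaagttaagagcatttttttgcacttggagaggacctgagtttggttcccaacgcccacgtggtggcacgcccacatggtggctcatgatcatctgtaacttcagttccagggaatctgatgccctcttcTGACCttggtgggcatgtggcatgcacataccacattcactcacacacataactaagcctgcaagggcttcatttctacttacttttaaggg
Abca1: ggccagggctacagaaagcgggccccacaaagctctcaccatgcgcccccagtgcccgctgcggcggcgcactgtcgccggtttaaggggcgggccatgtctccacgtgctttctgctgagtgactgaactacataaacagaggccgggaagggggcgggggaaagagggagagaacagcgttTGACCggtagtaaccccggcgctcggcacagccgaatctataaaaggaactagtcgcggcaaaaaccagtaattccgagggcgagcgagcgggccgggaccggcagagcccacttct
Apoe: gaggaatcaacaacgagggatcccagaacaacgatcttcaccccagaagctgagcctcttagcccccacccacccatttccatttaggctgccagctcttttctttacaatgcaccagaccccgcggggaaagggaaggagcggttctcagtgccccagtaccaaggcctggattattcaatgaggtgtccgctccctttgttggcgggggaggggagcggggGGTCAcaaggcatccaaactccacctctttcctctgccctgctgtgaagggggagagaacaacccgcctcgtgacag

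On both strands of these windows the GGTCA core occurred 1 time each in Psmb10, Abca1 and Apoe and was not found in those of Lcat and Tomm40. It began 42, 67 and 27 bases before the start of Psmb10, Abca1 and Apoe. The core is common, since 39.5% of 21044 promoter windows hold it. The full estrogen response element, GGTCANNNTGACC, was in none of the member windows and in 0.0523% of all windows. The AP-1 site TGANTCA (7.04% of all windows) and the sterol element ATCACNCCAC (0.228%) were not found in member windows either. The exact letters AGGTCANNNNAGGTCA, searched as the liver X receptor element, were in 0 of 21044 windows. Their absence from member windows is therefore uninformative. Looser forms of this element were not searched, so the windows may hold one. The forkhead site TGTTTAC (3.03%), read on the reverse strand, began 5 bases before the transcript start in another Apoe window. A match of letters does not show a bound site. The sequence under the peaks inside genes was not analysed here.

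Of the 7 genes, 6 had a peak in vWAT with estradiol, against 4 in vWAT with vehicle. The genes with estradiol were Apoa1, Apoe, Lcat, Scarb1, Abca1 and Abcg1, and those with vehicle were Apoe, Lcat, Scarb1 and Abca1. Among all protein-coding genes, 61.5% had a vWAT estradiol peak by the same rule and 44.8% a vehicle peak. For scWAT the count was 5 of 7, lacking Apoa1 and Apob, beside 61.0% of all genes. For BAT it was 4 of 7 (Lcat, Scarb1, Abca1 and Abcg1), beside 29.7%, and for Liver 6 of 7, again all but Apob, beside 67.5%. At a −log10 q-value of at least 2, Lcat alone had a BAT peak, beside 13.9% of all genes. Long genes offer more room for peaks, and Scarb1, Abca1 and Abcg1 span 64.0, 129 and 60.3 kb. Among the 4940 genes of 50 kb or more, 71.7% had a vWAT estradiol peak, 46.9% a vehicle peak, 69.6% a scWAT peak, 36.1% a BAT peak and 81.1% a Liver peak.

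**Figure D1:**
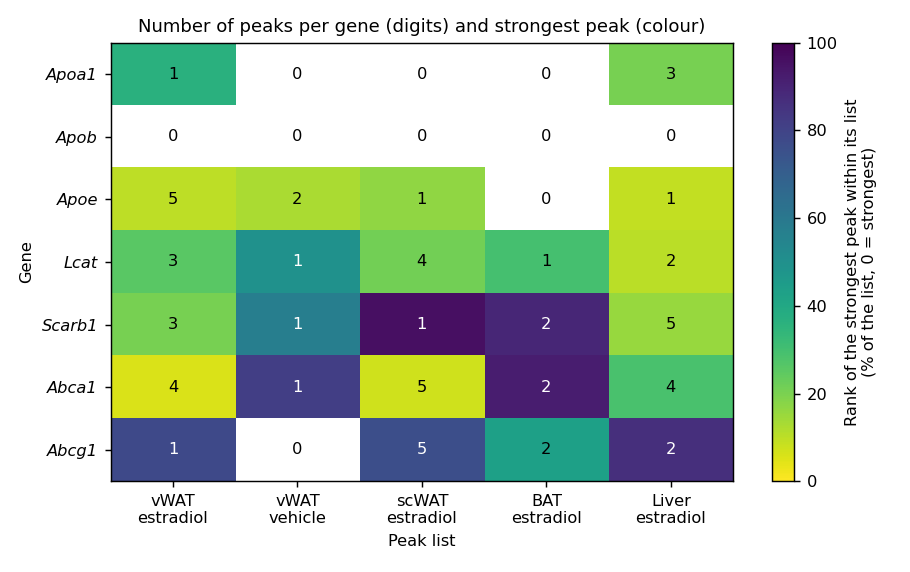
Number of ERα peaks inside each gene's span or within 25 kb of it (digits) in the 5 peak lists (columns), coloured by the rank of the strongest peak within its list in percent of the list, where 0 is the strongest and white means no peak. Abca1 had its strongest ranks in vWAT and scWAT with estradiol (5.81% and 7.06%), and Apob had no peak in any list.

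The vWAT estradiol list held 17 peaks near the members and the vehicle list 5. Of the 17 estradiol peaks 4 overlapped a vehicle peak and 13 did not, beside 22.7% (95% Wilson interval 22.1 to 23.3, counting error over peaks) of the whole estradiol list that overlapped one. At least 1 estradiol peak absent from the vehicle list was counted for 6 of the 7 genes, beside 46.2% of all genes. These 6 were all the members with an estradiol peak. Of the 13297 protein-coding genes with an estradiol peak, 10002 had one absent from the vehicle list. At least 1 estradiol peak held with vehicle was counted for Apoe (2 peaks), Lcat (1) and Scarb1 (1), as for 34.9% of all genes. Abca1 alone among the 7 had a vehicle peak absent from the estradiol list, as did 17.7% of all genes. The vehicle list is shorter, so a peak can be missing from it by list length. When every list was cut to the same 5193 peaks, taken by p-value, 5 estradiol peaks near members were left, 3 of them without a vehicle counterpart, and 3 vehicle peaks. At this cut 4 members had an estradiol peak, beside 28.8% of all genes, and 3 a vehicle peak, beside 37.3%. The share of the whole cut estradiol list without a vehicle counterpart was not computed.

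**Figure D2:**
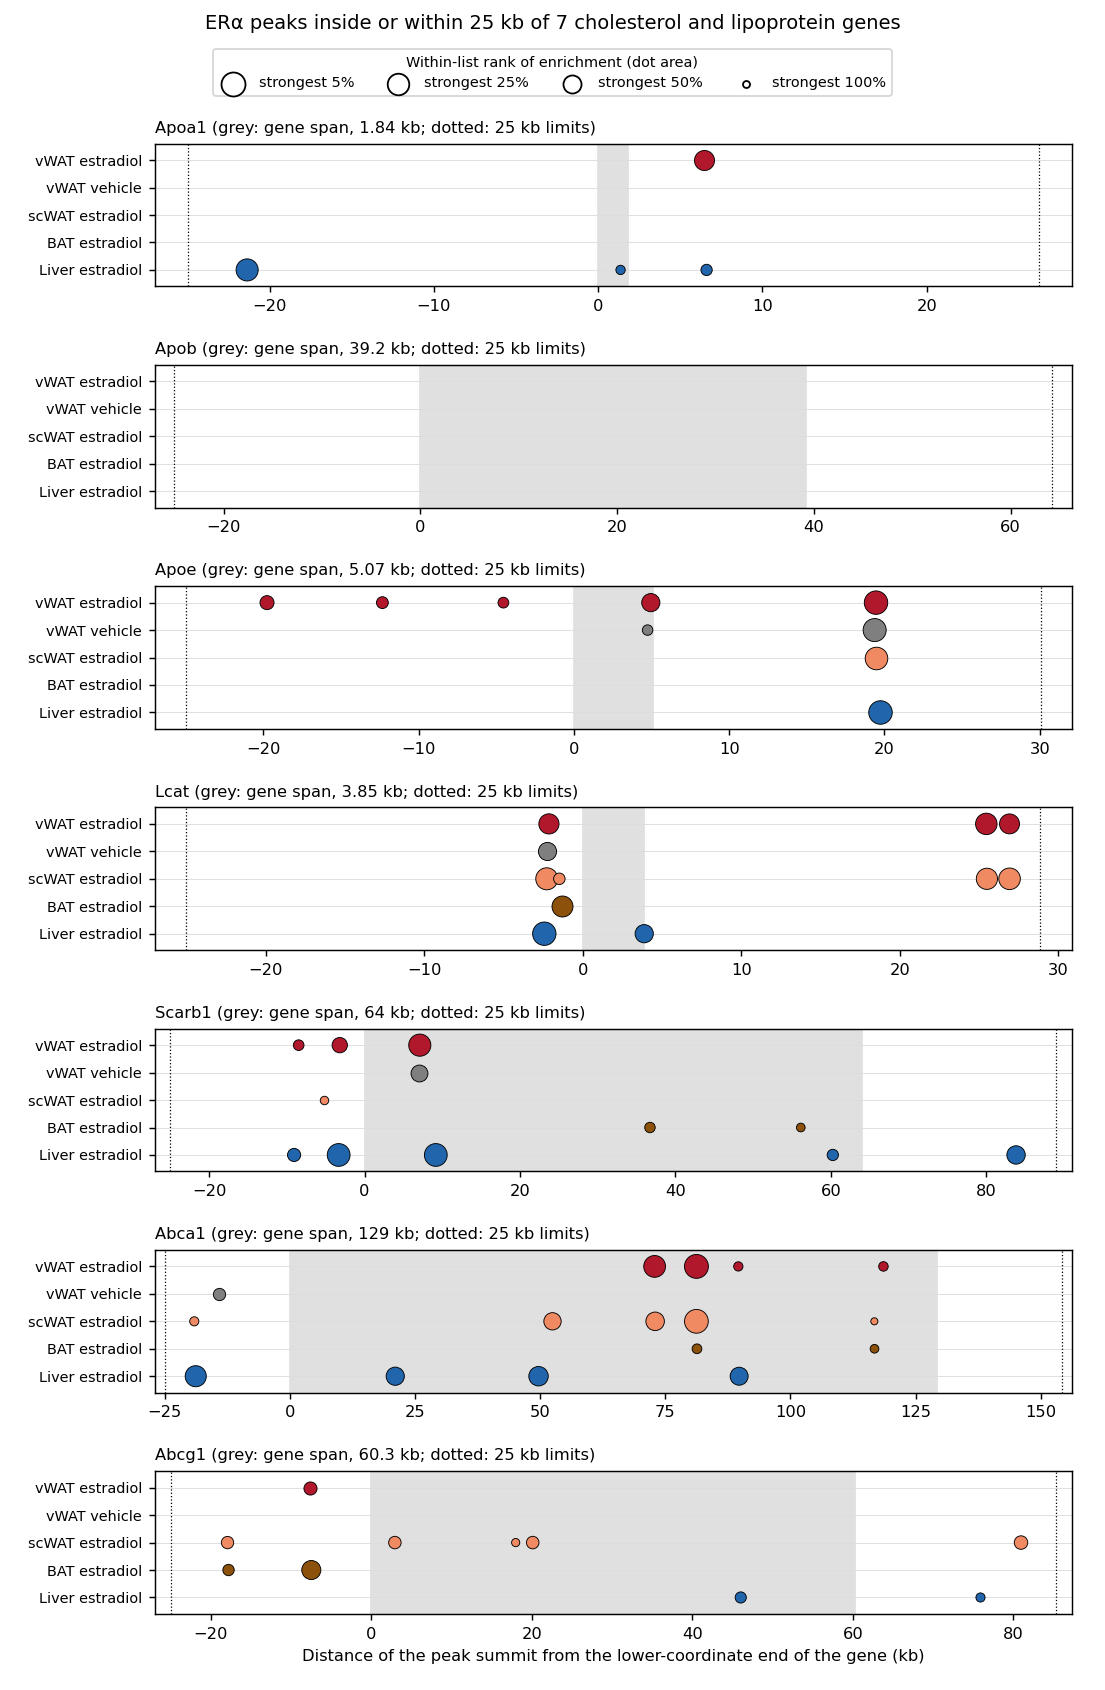
Summits of all peaks near the 7 genes, 1 panel a gene and 1 row a list, by distance in kb from the lower-coordinate end of the gene; dot area gives the within-list rank, grey shading the gene span and dotted lines the 25 kb limits. Lcat had no summit inside its own short span, whereas the 4 vWAT estradiol summits of Abca1 lay inside the gene, where no vehicle summit lay.

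The transporter gene Abca1 (chromosome 4, 53030789 to 53159988, mm10) carried the peak that, of the 62, ranked highest as a percent of its list. It lay inside the gene at 53111743 to 53112313, 48.0 kb from the gene's start, with an enrichment of 11.95 in vWAT with estradiol, which is rank 1204 of 20715. The scWAT list had the matching peak at rank 1268 of 17971 (enrichment 8.19), and the summits of both lists were 6 bp apart. These ranks are within the strongest 5.81% and 7.06% of their lists. BAT had a weak peak there at rank 4769 of 5193 (3.38, −log10 q-value 0.633), and neither the vehicle nor the Liver list had one.

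A second Abca1 peak, at 53103197 to 53103930 and 56.3 kb from the start, was likewise listed in vWAT with estradiol (6.88, rank 4841) and scWAT (3.53, rank 8438). Like the first, it was absent from the vehicle and Liver lists, and unlike the first it was also absent from BAT. The other vWAT estradiol peaks of Abca1 were weak, at 39.6 kb (3.49, rank 19320) and 10.6 kb (3.52, rank 19148) from the start. The first of them overlapped a Liver peak (3.88, rank 10803). The vehicle peak counted for Abca1 (3.83, rank 6035 of 7400) lay outside the gene, 14.1 kb from its lower end and inside Nipsnap3b. Abca1 thus had all 4 estradiol summits inside the gene and its vehicle summit outside it.

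Liver had 4 Abca1 peaks, of which 3 lay inside the gene, at 21.1, 49.7 and 89.7 kb from its lower end. The strongest Liver peak (4.65, rank 6114 of 21411) lay 18.8 kb below the gene, inside Nipsnap3b, and 53 bp from the edge of a scWAT peak (2.59, rank 16846) without overlap. In scWAT there were also peaks of 3.33 (rank 9838) and 2.21 (rank 17924) inside Abca1, and the weaker one overlapped a BAT peak of rank 4947. Of the 11 positions with a peak near Abca1, 7 were in 1 list each. At least 4 vWAT estradiol peaks, as Abca1 had, were counted for 9.10% of all genes, and at least 5 scWAT peaks for 3.78%. These shares are not matched for length, and the Abca1 window is 179 kb long. Per 100 kb of it there were 2.23 vWAT estradiol peaks and 2.79 scWAT peaks.

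Abcg1 (chromosome 17, 31057694 to 31117984), the other sterol transporter gene, had weaker peaks and none with vehicle. In vWAT with estradiol 1 peak lay 7.67 kb below its lower end at 31049876 to 31050171 (3.99, rank 16127). A BAT peak overlapped it by 67 bp and was the stronger within its list (4.42, rank 2244 of 5193). In scWAT 5 peaks were listed, with enrichments from 2.51 to 2.92 and ranks from 13644 to 17386 of 17971, and 3 of them lay inside the gene at 2.93, 18.0 and 20.1 kb from its lower end. All 5 scWAT peaks were in the weakest part of that list, at 75.9% or beyond. The scWAT peak farthest below the gene, at 17.9 kb, overlapped a BAT peak (3.45, rank 4442).

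Liver had 2 Abcg1 peaks, 1 inside the gene (3.23, rank 18494) and 1 at 15.6 kb above its end (2.60, rank 20077), nearer to Tff3. Neither overlapped a peak of another list. Of the 8 positions near Abcg1, 2 were shared, between scWAT and BAT and between vWAT with estradiol and BAT. No position near Abcg1 was shared by the vWAT estradiol and scWAT lists, whereas Abca1 had 2 such positions.

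Scarb1 (chromosome 5, 125277087 to 125341094), the HDL receptor gene, had 3 peaks in vWAT with estradiol and 1 with vehicle. The strongest estradiol peak lay inside the gene at 125283778 to 125284458, 7.11 kb from its lower end (7.40, rank 4215 of 20715). The vehicle peak (4.45, rank 4249 of 7400) lay at the same place, with summits 47 bp apart. The position was thus within the strongest 20.3% of the estradiol list and at 57.4% of the vehicle list. No other list had a peak there. The other estradiol peaks lay 3.19 kb (4.30, rank 13753) and 8.48 kb (3.66, rank 18320) below the gene and had no vehicle counterpart.

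Liver listed the most Scarb1 peaks of any list, 5, and at least as many were counted for 3.21% of all genes. That share is not matched for length, and the Scarb1 window is 114 kb long. A Liver peak 3.33 kb below the gene (5.54, rank 3282 of 21411) overlapped the vWAT estradiol peak of 4.30. Another of the same enrichment lay inside the gene at 125286032 to 125286533, 9.17 kb from its lower end, and overlapped no peak of another list. The vWAT summit inside the gene and this Liver summit were different positions. The remaining Liver peaks (3.31, 3.27 and 3.98) overlapped no other list's peak, and the first of them lay 156 bp from the edge of the weakest vWAT estradiol peak. In scWAT 1 weak peak was listed (2.55, rank 17226), and in BAT 2 weak ones inside the gene (3.38 and 3.25, ranks 4626 and 4947). None of the 3 overlapped a peak of another list.

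The apolipoprotein genes Apoe and Apoa1 stand among close neighbours, and most peaks counted for them lay in or beside another gene. Apoe (chromosome 7, 19696244 to 19701310) had 5 peaks in vWAT with estradiol, 2 with vehicle, 1 in scWAT, 0 in BAT and 1 in Liver. At least 5 vWAT estradiol peaks were counted for 4.34% of all genes. The strongest of them, at 19715377 to 19716332, lay 14.4 kb from Apoe at the start of Tomm40, which encodes a channel of the mitochondrial outer membrane. Its enrichment was 10.1 in vWAT with estradiol (rank 2030) and 10.0336 in vWAT with vehicle (rank 950), and it was 5.58 in scWAT (rank 3009) and 6.65 in Liver (rank 1944). In each of these 4 lists it was within the strongest 16.7%, and it was the one position near Apoe that scWAT and Liver held.

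Inside the Apoe span, 1 position was listed in vWAT with both treatments, at 19701038 to 19701357 with estradiol (4.90, rank 10205 of 20715), where the vehicle peak was weaker within its list (3.66, rank 6587 of 7400). Both peaks lay within 0.322 kb of the upper end of the span, beside the lower end of Tomm40. This is the 5′ side of the minus-strand Apoe gene, but the Apoe promoter windows lay lower, the printed one at 19699139 to 19699438. No peak overlapped those windows. The 3 other estradiol peaks near Apoe were in no other list. They lay inside Apoc2 (4.08, rank 15178), near Apoc4 (3.82, rank 17305) and inside Apoc1 (3.67, rank 18216), genes of the C apolipoproteins that modulate lipoprotein lipase and remnant uptake. All 3 were weak, at 73.3% of the list or beyond.

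Apoa1 (chromosome 9, 46228630 to 46230469), a gene of 1.84 kb, had 1 peak in vWAT with estradiol, none with vehicle, none in scWAT or BAT, and 3 in Liver. The vWAT peak at 46234798 to 46235470 (5.59, rank 7550) lay inside Apoc3, 4.61 kb from Apoa1. A Liver peak overlapped it by 265 bp, with summits 150 bp apart (3.31, rank 18378). The strongest Liver peak (5.07, rank 4422 of 21411) lay 21.4 kb away inside Sik3, a kinase gene. The Liver peak inside Apoa1 itself was weak (3.17, rank 19933, −log10 q-value 1.32). Liver was the one list with a summit inside Apoa1.

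Apob (chromosome 12, 7977629 to 8016839) had no peak in any of the 5 lists, which was the case for 20.0% of all genes. The nearest summit was 64.9 kb away in vWAT with estradiol, 92.7 kb with vehicle, 54.3 kb in scWAT, 132 kb in BAT and 39.7 kb in Liver. No other protein-coding gene lies within 25 kb of Apob, so its window held no neighbours' peaks either.

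Lcat (chromosome 8, 105939551 to 105943402) was the member with a peak in all lists and none inside its own span. Its window held 3 peaks in vWAT with estradiol, 1 with vehicle, 4 in scWAT, 1 in BAT and 2 in Liver. A position inside Psmb10, which encodes a subunit of the immunoproteasome, 2.13 kb from Lcat, was listed in vWAT with estradiol (5.64, rank 7349) and with vehicle (4.77, rank 3653), in scWAT (4.96, rank 3840) and in Liver (6.36, rank 2203). In Liver it was among the strongest 10.3% of the list and in vWAT with vehicle at 49.4%. The BAT peak (4.73, rank 1533) lay 1.32 kb from Lcat, was the strongest BAT peak near any member, and overlapped a weak scWAT peak (2.77, rank 15276) inside Psmb10.

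A pair of peaks farther from Lcat was shared by vWAT and scWAT with estradiol and was absent from the vehicle, BAT and Liver lists. They lay 21.6 and 23.1 kb from Lcat, inside Slc12a4, a potassium-chloride cotransporter gene, and 0.322 kb beyond its start. In vWAT with estradiol their enrichments were 6.58 (rank 5322) and 5.56 (rank 7682), and in scWAT 4.36 (rank 4994) and 4.61 (rank 4473). Summits of both lists were 37 and 3 bp apart. The peak at the start of Lcat itself was found in Liver alone, at 105943361 to 105943658 with the summit 27 bp from the gene's start (3.94, rank 10465 of 21411, −log10 q-value 1.75). It covered 292 of the 300 bases of the Lcat window printed above.

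Of the 62 peaks, 26 had the summit inside a member's span, and for 37 a member was the nearest protein-coding gene. For the other 25 another gene was nearer. The peaks merged into 42 positions, of which 27 were in 1 list, 12 in 2, 1 in 3, 2 in 4 and none in all 5. The 2 in 4 lists were those at Tomm40 and Psmb10. The 3 members Lcat, Scarb1 and Abca1 had a peak in each of the 5 lists, as did 21.1% of all genes, but at different positions.

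Between tissues with estradiol, 6 of the 17 vWAT peaks near members were found in scWAT, 5 in Liver and 2 in BAT. Over the whole vWAT estradiol list the shares were 48.4% (Wilson interval 47.7 to 49.0), 22.8% (22.3 to 23.4) and 11.1% (10.7 to 11.6). The peaks shared by vWAT and scWAT and absent from Liver lay near Abca1 and Lcat, 2 of the 7 genes, and 24.7% of all genes had such a peak. From the other side, 6 of 16 scWAT peaks were found in the vWAT estradiol list (whole list 56.0%) and 5 of 17 Liver peaks (22.2%). Of the 7 BAT peaks, 4 were found in scWAT (whole list 42.8%), 2 in vWAT with estradiol (44.6%) and 0 in Liver (36.2%). With so few peaks these counts describe the 7 genes and were not tested.

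The members Apoa1, Lcat, Scarb1, Abca1 and Abcg1, 5 of the 7, had a Liver peak that overlapped no peak of another list, as did 47.9% of all genes. A −log10 q-value of 2 or more was reached by 7 of the 17 Liver peaks and 1 of the 7 BAT peaks. In vWAT with estradiol all 17 did, against 3 of 5 with vehicle, and in scWAT 13 of 16. The members' Liver and BAT peaks thus passed this value less completely, as did the peaks of those lists as a whole.

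**Figure D3:**
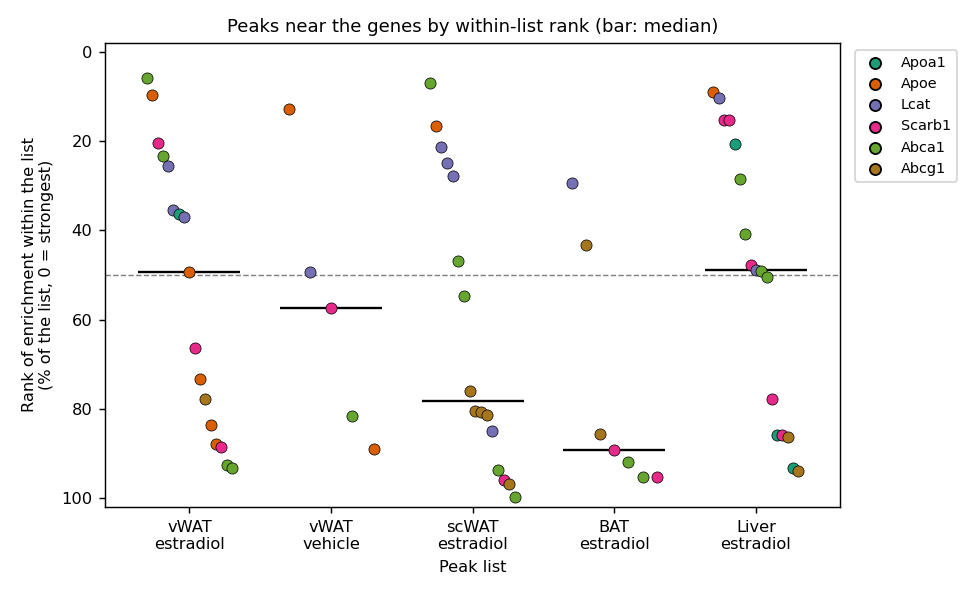
Within-list rank of enrichment, in percent of the list with the strongest at the top, for every peak near the genes; dots are peaks coloured by gene, bars are medians and the dashed line is the middle of a list. The median rank was 49.3% in vWAT with estradiol, 57.4% with vehicle, 78.2% in scWAT, 89.1% in BAT and 48.9% in Liver.

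Peaks near the members stood in the middle of the vWAT estradiol and Liver lists, with median ranks of 49.3% and 48.9%, and lower in scWAT (78.2%) and BAT (89.1%). Their median width was 471 bp in vWAT with estradiol, where the whole list had 434 bp, and 451.5 bp in scWAT, where it had 407 bp. In scWAT 9 of 16 peaks were in the weakest 25% of the list and 4 in the strongest 25%, and those 4 belonged to Abca1, Apoe and Lcat. In BAT 5 of 7 were in the weakest 25% and none in the strongest.

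The wider cholesterol pathway, 74 further genes in 6 lists, had a peak in vWAT with estradiol for 58 genes, with vehicle for 44, in scWAT for 59, in BAT for 21 and in Liver for 65. These are 78.4%, 59.5%, 79.7%, 28.4% and 87.8%, beside the shares of all genes given above. An estradiol-only vWAT peak was counted for 38 of the 74, beside 46.2% of all genes. A peak in the Liver list alone was counted for 5 of the 74 and for no member, and 7.72% of all genes had this pattern. Among the 5 were Vldlr, a lipoprotein receptor gene, Abcg8, a sterol exporter gene, and Abcb4 and Abcb11, transporter genes of bile. Cyp7a1, which encodes the rate-limiting enzyme of bile acid synthesis, had no peak in any list.

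**Figure D4:**
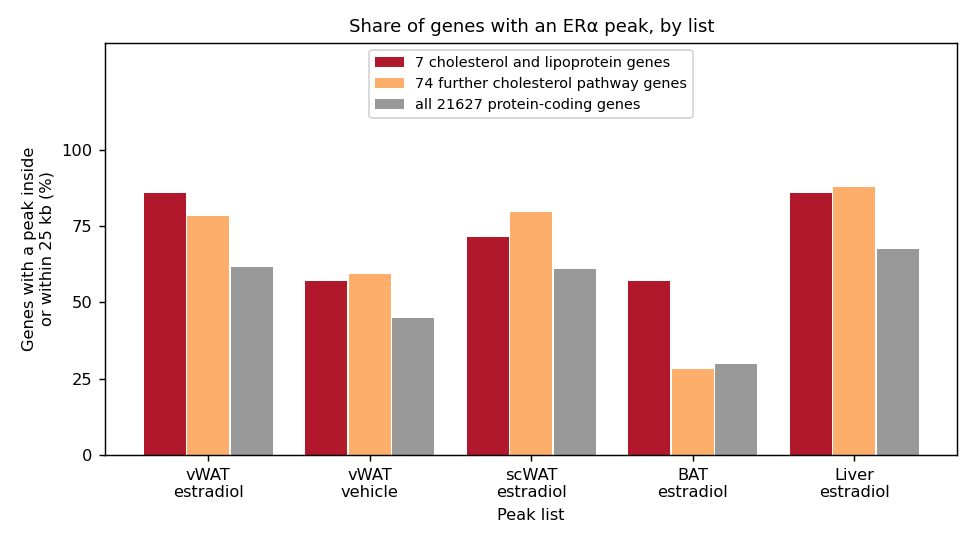
Percent of genes with an ERα peak inside the span or within 25 kb in each list (bars from 0), for the 7 genes, the 74 further cholesterol pathway genes and all 21627 protein-coding genes. In vWAT with estradiol the shares were 85.7%, 78.4% and 61.5%, and in BAT 57.1%, 28.4% and 29.7%. At a −log10 q-value of at least 2, 1 of the 7 genes had a BAT peak, beside 13.9% of all genes.

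Of 18 cholesterol synthesis genes, 16 had a peak in vWAT with estradiol, 13 with vehicle, 16 in scWAT, 7 in BAT and 16 in Liver. Among all genes the shares were 61.5%, 44.8%, 61.0%, 29.7% and 67.5%. The strongest vWAT estradiol peaks lay at Fdps, farnesyl diphosphate synthase (15.5, rank 392), near Mvk, mevalonate kinase (14.4, rank 604), at Hmgcs1, HMG-CoA synthase (13.9, rank 694), and at Idi1 (11.7, rank 1304). Those of Fdps, Mvk and Hmgcs1 were listed in all 5 lists and that of Idi1 in all but BAT. Fdps (15.9, rank 117) and Mvk (10.4, rank 763) also led in Liver. Estradiol-only vWAT peaks were counted for 9 of the 18, beside 46.2% of all genes. The strongest peaks of this list of genes were thus also listed with vehicle, whereas that of Abca1 was not.

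Of 14 regulator genes, 9 had a peak in vWAT with estradiol, 10 with vehicle, 11 in scWAT, 4 in BAT and 12 in Liver. The shares of all genes were 61.5%, 44.8%, 61.0%, 29.7% and 67.5%. The liver X receptors turn on Abca1 and Abcg1 when sterols build up, and their genes Nr1h3 (13.9, rank 691, inside Acp2) and Nr1h2 (10.6, rank 1728) had vWAT estradiol peaks that were also held with vehicle. Mbtps2 (9.16, rank 2623), a protease gene of sterol sensing, did as well. The peak near Rxra (9.10, rank 2673), the partner of the liver X receptors, was found in scWAT and not with vehicle. In Liver Nr1h3 (13.6, rank 295) and Mbtps2 (10.4, rank 763) led.

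All 9 uptake and lysosomal genes had a Liver peak and 8 a vWAT estradiol peak, against 5 with vehicle. The shares of all genes were 67.5%, 61.5% and 44.8%. In scWAT 8 had one and in BAT 3, beside 61.0% and 29.7% of all genes. Lrp1, a large endocytic receptor gene (11.3, rank 1466), and Npc1 (5.13, rank 8968), a gene of lysosomal cholesterol export, had their strongest peaks with estradiol at positions absent from the vehicle list, and Cd36 (9.23, rank 2575), a fatty acid and lipoprotein receptor gene, had one held with vehicle. In Liver Lrp8 (6.64, rank 1973) and Lrp1 (6.22, rank 2364) led.

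Of 12 other apolipoprotein and assembly genes, 11 had a peak in vWAT with estradiol, 8 with vehicle, 9 in scWAT, 3 in BAT and 11 in Liver. Among all genes the shares were 61.5%, 44.8%, 61.0%, 29.7% and 67.5%. Several stand beside Apoa1 or Apoe and share their peaks, among them Apoc1, which had 7 vWAT estradiol peaks and shares the Tomm40 peak. The peaks near Apom (10.8, rank 1677) and Mttp, which loads lipid onto apolipoprotein B (9.32, rank 2502), were held with vehicle, and that near Apoa2 (8.02, rank 3548) was not. Mttp (13.7, rank 275) and Apom (13.0147, rank 358) led in Liver. The strongest Mttp peak of vWAT with estradiol and that of Liver lay inside Trmt10a. Apob had no peak, whereas Mttp, whose product acts on the Apob protein, had 3 in Liver.

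Of 9 lipase and remodelling genes, 6 had a peak in vWAT with estradiol, 4 with vehicle, 8 in scWAT, 2 in BAT and 7 in Liver. The shares of all genes were 61.5%, 44.8%, 61.0%, 29.7% and 67.5%. Angptl4, an inhibitor of lipoprotein lipase, had its strongest vWAT estradiol peak beside Rab11b (10.2, rank 1954), and it was held with vehicle. Angptl8 (8.41, rank 3191) and Lpl, lipoprotein lipase (6.97, rank 4738), had strongest estradiol peaks that overlapped no vehicle peak, and that of Pltp, phospholipid transfer protein (5.45, rank 7935), was held. Lpl had 4 peaks in all in vWAT with estradiol and none with vehicle, Angptl8 had 1 with estradiol and 2 with vehicle, and Pltp had 4 with estradiol and 5 with vehicle. In Liver Pltp (6.90, rank 1809) and Angptl8 (5.05, rank 4466) led.

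Of 12 genes of sterol export, esterification and bile acids, 8 had a peak in vWAT with estradiol, 4 with vehicle, 7 in scWAT, 2 in BAT and 10 in Liver. Among all genes the shares were 61.5%, 44.8%, 61.0%, 29.7% and 67.5%. Soat1, which esterifies cholesterol inside cells, had a peak (13.5, rank 773) that was held with vehicle and absent from BAT and Liver. Soat2 (9.40, rank 2455) and Cyp27a1, a sterol hydroxylase gene (7.71, rank 3839), had estradiol-only peaks, and that of Abcg4 (5.53, rank 7720) was held. In Liver Abcb4 (7.21, rank 1601) and Cyp8b1 (6.10, rank 2474), a bile acid hydroxylase gene, led, and neither peak was in another list.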

How the data were processed

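ERα ChIP-seq of 5 groups of CD-1 mice was used, with groups read from the labels. RNA-seq and the H3K27ac data were not used here. The submitters' processing notes name the build mm10 and, with no role, the tools HOMER and BWA (version 0.7.12). How libraries of a group were combined, and the peak caller, its control and its threshold, are not given in the sources used. The deposited lists hold, as the authors' values for a peak, an enrichment ratio, a −log10 p-value, a −log10 q-value, a score and a summit.

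Gene spans came from RefSeq on GRCm38.p6. Coordinates are mm10 and count from 1. An overlap of 1 bp or more made peaks of 2 lists shared. The background is the share of 21627 protein-coding genes called by the same rule. Alternatives were distances of 5 and 100 kb, lists held to 5193 peaks by p-value, a −log10 q-value of at least 2, summits within 100 bp, overlap of 50% of both peaks, and ranking by p-value. Counting inside the span alone and by nearest gene was added after seeing the data. Counting and overlap were checked on made-up peaks with known answers.

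The 7 genes and the 6 pathway lists were chosen with earlier results of these data known. All members and all their peaks are given, and in each pathway list the genes with the 4 strongest vWAT estradiol peaks and the 2 strongest Liver peaks are named. Some of the genes named by that rule are not reported here. Vldlr, Abcg8, Abcb11, Cyp7a1, Srebf2, Nr5a2, Apoc2, Apoc4, Greb1 and Pgr were named outside that rule, after their values were seen. The tools were pandas 2.3.3, numpy 2.4.6, matplotlib 3.10.9 and scipy 1.17.1 under Python 3.11.15.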

Additional observations from a re-analysis of the deposited data

How the results depend on the processing

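No paired analysis was possible because each group has 1 peak list, and for the same reason no library could be left out. Of 85 recomputed counts 38 stayed within 1.5 times the reported one and 47 did not, since most move with the distance or the number of peaks by construction. Ranked by p-value, the strongest peak was the same one for 24 of the 25 pairs of gene and list that had a peak. Within 5 kb the peaks near members were 10 (vWAT estradiol), 3 (vWAT vehicle), 9 (scWAT) and 11 (Liver), 3 members had a scWAT peak, and of the vWAT estradiol peaks 7 were estradiol-only and 3 in scWAT. Within 100 kb the peaks were 40 (vWAT estradiol), 14 (vWAT vehicle), 42 (scWAT), 12 (BAT) and 50 (Liver), and of the vWAT estradiol peaks 30 were estradiol-only, 10 held with vehicle, 20 in scWAT and 15 in Liver. With lists held to 5193 peaks the counts were 5 (vWAT estradiol), 3 (vWAT vehicle), 6 (scWAT) and 5 (Liver). At this length 3 members had a scWAT peak, beside 27.8% of all genes. Of the vWAT estradiol peaks 3 were estradiol-only, 2 held and 1 in Liver. At a −log10 q-value of at least 2 there were 3 vehicle, 1 BAT and 7 Liver peaks. There 1 member had a BAT peak, beside 13.9% of all genes, and 3 vWAT estradiol peaks were in Liver. With summits within 100 bp, 2 vWAT estradiol peaks were held with vehicle and 0 were in Liver, and with an overlap of 50% 2 were in Liver. Inside the span alone, 3 (vWAT estradiol), 2 (vWAT vehicle), 2 (scWAT) and 2 (BAT) members had a peak, and the peaks were 6, 2, 7, 4 and 7 in vWAT estradiol, vWAT vehicle, scWAT, BAT and Liver. Where the member had to be the nearest gene, 2 members had a vehicle peak and 3 a scWAT peak, and the peaks were 9 (vWAT estradiol), 2 (vWAT vehicle), 9 (scWAT) and 11 (Liver). The share of all genes was not computed for the 5 kb, 100 kb, span-only and nearest-gene counts, so these are not read against other genes. For peak sharing at 5 and 100 kb the whole-list shares stay 22.7% with vehicle, 48.4% in scWAT and 22.8% in Liver. Whole-list shares were not computed for the cut or q-value lists, the 100 bp rule or the 50% rule. Depth is unknown, and its part in the shorter vehicle and BAT lists was not tested.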

Other observations

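The 25 kb limit passed between peaks at 23.1 kb from Lcat in vWAT with estradiol and in scWAT, which were counted, and peaks at 26.9 kb (scWAT, enrichment 2.90, rank 14316), 26.96 kb (Liver, 4.76, rank 5568) and 27.3 kb (vWAT with estradiol, 2.87, rank 20638) from Apoe, which were not. Some stronger peaks lay farther out. Apob had a vWAT estradiol peak at 64.9 kb with an enrichment of 10.4 (rank 1872 of 20715) and a scWAT peak at 54.3 kb with 7.10 (rank 1777 of 17971). Lcat had vWAT peaks at 38.7 kb with estradiol (10.9, rank 1631) and at 58.7 kb with vehicle (14.5, rank 337 of 7400). Abca1 had peaks beyond its window in vWAT with estradiol (36.3 kb, 6.02, rank 6446) and vehicle (36.3 kb, 8.30, rank 1358), and also in BAT (36.2 kb, 5.82, rank 708) and Liver (36.3 kb, 7.34, rank 1554). These positions were chosen after their values were seen.

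Near Apoa1, Apoe, Lcat, Abca1 and Abcg1, the rule also counts for the members peaks that lie in or nearer to neighbouring genes. For Abcg1 these were a scWAT peak 2.41 kb from Tff2 and a Liver peak 3.99 kb from Tff3. Apoc1, Apoc2 and Apoc4, beside Apoe, had 7, 6 and 6 vWAT estradiol peaks and 2, 1 and 1 vehicle peaks by the same rule, partly the same ones. Srebf2, the main transcription factor of cholesterol synthesis, had 0 peaks in vWAT with estradiol, 1 with vehicle and 5 in Liver. Nr5a2, a liver receptor of bile acid synthesis, had 0 in vWAT with estradiol and with vehicle, 1 in BAT and 4 in Liver.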
